A study of Homo sapiens with 6 samples.

Results

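The 10 genes described here encode the hypoxia-inducible factor (HIF) subunits and the proteins that control them: the alpha subunits HIF1A, EPAS1 and HIF3A, the beta subunits ARNT and ARNT2, the prolyl hydroxylases EGLN1, EGLN2 and EGLN3, the asparaginyl hydroxylase HIF1AN, and VHL. They were chosen by gene name from a table of 60664 genes, and all 10 were found in it. RNA-seq was performed on 67R cells, a line derived from the EGFR-mutant lung adenocarcinoma line NCI-H1975 by growing it in rising doses of the third-generation EGFR inhibitor ASK120067 until it was resistant. Of the 6 libraries, 3 came from 67R cells given a negative control siRNA (siNC) and 3 from 67R cells given siRNA against BCAT1 (siBCAT1). BCAT1 is the cytosolic enzyme that moves the amino group of branched-chain amino acids to α-ketoglutarate (α-KG), in a reaction that runs both ways. All 6 libraries share the resistant background, so the sensitive parental line is not part of the comparison. The labels name the siRNA only as siBCAT1, which the study's methods use as another name for siBCAT1-2, and do not give the time after transfection, and nothing in them says that libraries of a group came from separate cultures, so the p-values measure the spread between these libraries. No low-oxygen treatment is named for them.

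HIF is a dimer of an alpha and a beta subunit of the bHLH-PAS family. With oxygen present, the EGLN enzymes (also called PHDs) hydroxylate prolines of the alpha subunit, VHL binds the hydroxylated protein and carries it to a ubiquitin ligase, and HIF1AN (also called FIH) hydroxylates an asparagine that blocks the coactivator EP300. These hydroxylases all use oxygen, iron and α-KG, and α-KG also takes part in the reaction of BCAT1. The study ties α-KG from BCAT1 to histone demethylation, and a role of these hydroxylases was not tested here. The study reports that α-KG fell in the resistant cells when BCAT1 was knocked down or inhibited. The libraries hold no measure of α-KG. EGLN3 and EGLN1 are themselves textbook HIF target genes. The control acts on the protein, whereas the values here are mRNA levels.

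Values are TPM, the number of transcripts of a gene in a fixed total of transcripts, which are scaled for gene length and library size, so levels can be set side by side between genes. BCAT1 was at 42.7, 42.18 and 29.76 TPM in siNC 1, 2 and 3 and at 8.78, 7.1 and 8 TPM in the siBCAT1 libraries, a log2 fold change of -2.12 (SE 0.15, limma adjusted p = 0.000272). Fold changes are siBCAT1 over siNC on the log2(TPM + 1) scale, which understates the change of low genes, and a gene was called when its Benjamini-Hochberg adjusted p from limma was under 0.05. Of the 14286 genes that averaged 1 TPM or more over the 6 libraries, 27.1% were called, 10.4% lower and 16.7% higher in siBCAT1. Among 7 lung epithelial markers, KRT7, KRT8 and KRT18 were abundant while NKX2-1 and NAPSA were at or near 0 in all libraries, and the summed level, nearly all of it keratins, was 2461 to 2859 TPM in siNC and 1614 to 1897 TPM in siBCAT1. CDH1 fell from 19.7 ± 8.34 to 3.10 ± 1.95 TPM (limma adjusted p = 0.00881), while EPCAM averaged 1.27 ± 0.327 TPM in siNC and 2.33 ± 0.334 TPM in siBCAT1, without overlap and not called (adjusted p = 0.0732). Among 8 markers of other cell types, 3 reached a mean of 1 TPM (CD14, COL1A1 and COL1A2), and PTPRC, CD3E, DCN, PECAM1 and VWF were at or near 0. The sum, nearly all of it COL1A2, was 249 to 269 TPM in siNC and 187 to 244 TPM in siBCAT1. COL1A2 averaged 243 ± 6.86 TPM in siNC and 211 ± 29.8 TPM in siBCAT1 and was not called (limma adjusted p = 0.170). COL1A1 was called lower, from 15.8 ± 3.15 to 9.41 ± 1.04 TPM (adjusted p = 0.0197). The part of these shifts in the results was not tested. The libraries are bulk RNA, in which fewer cells with a transcript and less of it per cell cannot be told apart.

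Of the 10 genes, 8 passed the filter on low values, and HIF3A and ARNT2 did not. HIF1A, the major alpha subunit, and EGLN3, an oxygen-sensing hydroxylase, were lower in siBCAT1, and 0 of the 8 were called higher by limma (also 0 at an unadjusted p under 0.05). The other 6 tested genes were not called. Against 27.1% called over all genes tested, 10.4% lower and 16.7% higher, these counts do not set the 8 apart. The groups did not overlap for 4 of the 8, against 44.1% of all genes tested, and the median log2 fold change of the 8 was -0.15 against 0.04 for all genes tested.

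**Figure D1:**
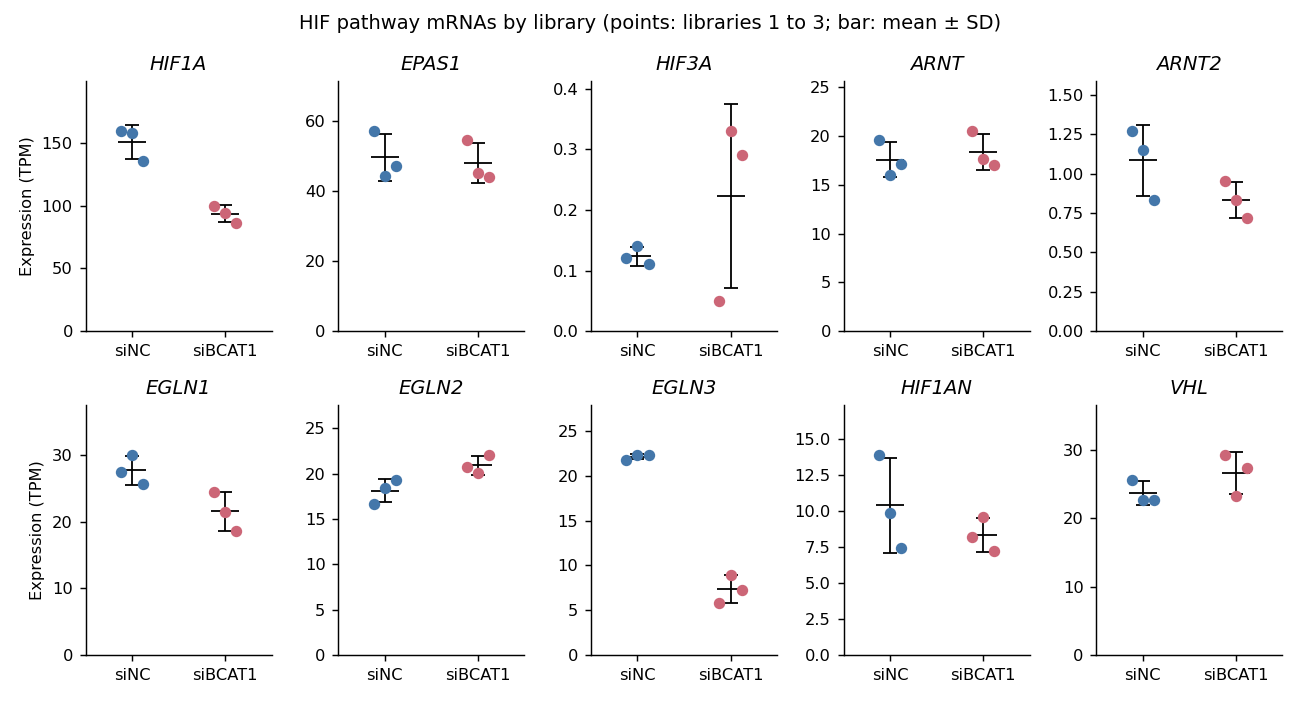
Expression in TPM (vertical axes from 0, each gene on its own scale) of the 10 genes in the 3 siNC libraries (blue) and the 3 siBCAT1 libraries (red), with the mean and SD as bars. All red points of HIF1A, EGLN1 and EGLN3 sit below all blue points, those of EGLN2 sit above, while the points of the other genes overlap.

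Among the alpha subunits, HIF1A (ENSG00000100644, chromosome 14, 61695513 to 61748259, plus strand, GRCh38) was at 159.44, 157.66 and 135.38 TPM in siNC 1, 2 and 3 and at 99.93, 93.94 and 86.44 TPM in siBCAT1 1, 2 and 3. The lowest siNC library lay above the highest siBCAT1 library. The mean moved from 151 ± 13.4 to 93.4 ± 6.76 TPM (SD, n = 3 libraries each), a change of -38.1%, and the log2 fold change was -0.68 (SE 0.09, limma adjusted p = 0.00195). Even so, HIF1A remained the most abundant of the 10 mRNAs in every library.

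EPAS1 encodes the HIF-2 alpha subunit, whose target genes overlap in part with those of HIF-1. It was at 57.19, 44.4 and 47.34 TPM in the siNC libraries and at 54.72, 45.19 and 44.2 TPM in the siBCAT1 libraries. The groups overlapped almost fully, with library 1 the highest in both. Its log2 fold change was -0.04, with a 95% interval of -0.33 to 0.24 (adjusted p = 0.818), so a fall as large as that of HIF1A lies outside the interval. HIF3A, an alpha subunit with splice forms that can act against the others, was at 0.05 to 0.33 TPM over the 6 libraries. A fit without the filter gave HIF3A a log2 fold change of 0.12 (limma adjusted p = 0.579), from values too low to carry a direction.

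The makeup of the alpha subunit mRNA therefore shifted within each library. HIF1A made up 73.6%, 78.0% and 74.0% of the summed alpha subunit TPM in siNC and 64.6%, 67.4% and 66.0% in siBCAT1. These groups did not overlap, and the mean difference was -9.20 percentage points (SE 1.61; exact permutation test over libraries, two-sided, p = 0.1, the smallest that 3 against 3 libraries can give). The remainder was nearly all EPAS1, at 24.7% ± 2.43 in siNC and 33.8% ± 1.49 in siBCAT1. Per EPAS1 transcript there were 3.05 of HIF1A in siNC and 1.95 in siBCAT1, as geometric means of the TPM ratio over libraries. A share does not depend on how the libraries were scaled.

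The beta subunits are the constitutive partners of all alpha subunits and of other bHLH-PAS proteins. ARNT was at 19.58, 16.01 and 17.16 TPM in siNC and at 20.52, 17.64 and 17.03 TPM in siBCAT1. Library 1 was again the highest in both groups, and the groups overlapped. The log2 fold change of ARNT was 0.06, with a 95% interval of -0.20 to 0.32 (adjusted p = 0.713).

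ARNT2, a paralog best known from neural tissue, was at 1.27, 1.15 and 0.83 TPM in siNC and at 0.95, 0.83 and 0.72 TPM in siBCAT1, a mean of 0.958 TPM that is just under the filter. The groups overlapped, and the fit without the filter gave a log2 fold change of -0.18 (limma adjusted p = 0.580). The summed alpha subunit mRNA was 10.8 times the summed beta subunit mRNA in siNC and 7.38 times in siBCAT1, a difference of -0.54 in the log2 ratio (SE 0.07; exact permutation p = 0.1, the smallest possible). The groups did not overlap in this ratio.

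EGLN3 (PHD3; chromosome 14, 33924231 to 34462774, minus strand, GRCh38), the most HIF-inducible of the prolyl hydroxylases, changed most among the 10 genes. It was at 21.8, 22.28 and 22.35 TPM in siNC and at 5.83, 8.91 and 7.28 TPM in siBCAT1. The 3 siNC libraries were nearly equal, and every siBCAT1 library was far below them. The mean was 22.1 ± 0.299 TPM in siNC and 7.34 ± 1.54 TPM in siBCAT1, 3.02-fold lower, and the log2 fold change was -1.49 (SE 0.14, limma adjusted p = 0.000645). Ranked from the lowest log2 fold change, EGLN3 stood at place 156 of the 14286 genes tested and HIF1A at place 810.

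EGLN1 (PHD2; chromosome 1, 231363751 to 231425044, minus strand), the main hydroxylase of HIF-1 alpha in most cells with normal oxygen, was at 27.52, 30.09 and 25.73 TPM in siNC and at 24.55, 21.48 and 18.68 TPM in siBCAT1. All siBCAT1 libraries were below all siNC libraries, by a small margin between siNC 3 and siBCAT1 1. The log2 fold change of EGLN1 was -0.36 (SE 0.11, 95% interval -0.62 to -0.09), and the limma adjusted p of 0.0570 missed the threshold. EGLN1 passed it in 7 of 14 alternative analyses, in which the adjusted p ranged from 0.0172 to 0.147 and the direction stayed the same.

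EGLN2 (PHD1; chromosome 19, 40798996 to 40808433, plus strand), known as a hydroxylase that hypoxia does not induce, was at 16.69, 18.43 and 19.26 TPM in siNC and at 20.7, 20.04 and 22.08 TPM in siBCAT1. All siBCAT1 libraries lay above all siNC libraries, with a gap smaller than the spread within siNC. Its log2 fold change was 0.20, with a 95% interval of -0.01 to 0.40, and it was not called (adjusted p = 0.134, and 0.0918 to 0.310 over the alternatives).

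**Figure D2:**
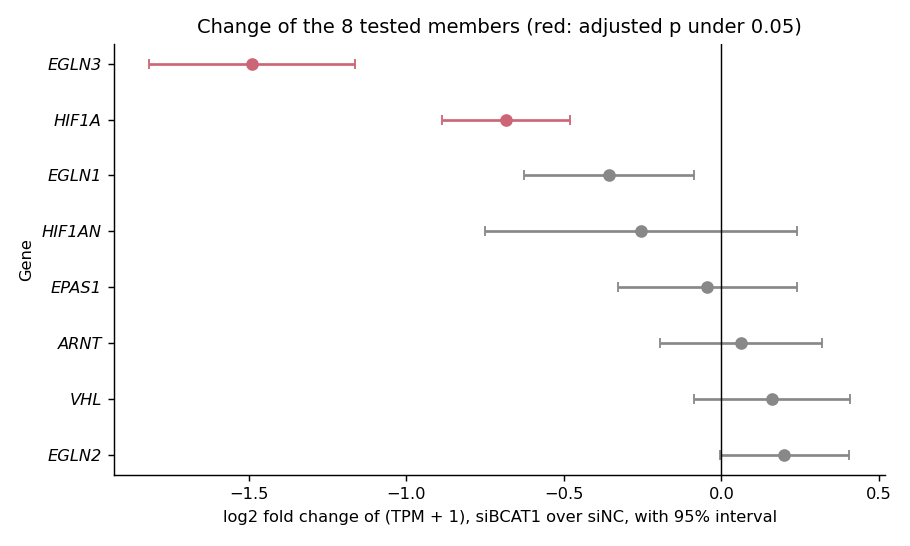
Log2 fold change of (TPM + 1), siBCAT1 over siNC (horizontal axis), with its 95% interval from limma for each of the 8 tested genes, red where the adjusted p was under 0.05. EGLN3 at -1.49 and HIF1A at -0.68 are called, and the intervals of EPAS1, ARNT, VHL, HIF1AN and EGLN2 include 0.

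Summed over the 3 EGLN genes, the mRNA was 68.1 ± 2.47 TPM in siNC and 49.9 ± 1.60 TPM in siBCAT1. In siNC the sum was divided into 40.8% EGLN1, 26.6% EGLN2 and 32.6% EGLN3, and in siBCAT1 into 43.2%, 42.1% and 14.7%, as means of 3 libraries. The share of EGLN3 differed by -17.8 percentage points (SE 1.90) and that of EGLN2 by 15.4 (SE 2.20), without overlap between groups (exact permutation p = 0.1 for each, the smallest possible). The share of EGLN1 overlapped between the groups, with a difference of 2.38 points (SE 2.97; exact permutation p = 0.4). These shares add up to the whole, so a fall of 1 gene raises the shares of the others.

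HIF1AN, the asparaginyl hydroxylase (chromosome 10, 100529072 to 100559998, plus strand), was at 13.89, 9.84 and 7.41 TPM in siNC and at 8.2, 9.56 and 7.24 TPM in siBCAT1. The siNC libraries spread more widely than the groups differ, and siNC 1 alone lies above the rest. Its log2 fold change was -0.25, with a 95% interval of -0.75 to 0.24 (adjusted p = 0.410), so these libraries allow a fall as large as that of HIF1A as well as no fall.

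VHL, the substrate receptor of the ubiquitin ligase (chromosome 3, 10141008 to 10152220, plus strand), was at 25.67, 22.72 and 22.61 TPM in siNC and at 29.29, 23.32 and 27.33 TPM in siBCAT1. The groups overlapped through siBCAT1 2, and the log2 fold change was 0.16, with a 95% interval of -0.09 to 0.41 (adjusted p = 0.300). Per VHL transcript there were 6.37 of HIF1A in siNC and 3.52 in siBCAT1, a difference of -0.86 in the log2 ratio (SE 0.12). Against EGLN1, the ratio of HIF1A went from 5.43 to 4.35, a difference of -0.32 (SE 0.07). Neither log2 ratio overlapped between the groups (exact permutation p = 0.1 for each, the smallest possible). HIF1A enters both ratios, as it does the alpha subunit share and the alpha to beta ratio, so these measures in part restate its fall. The ratio of HIF1A to EGLN3 moved the other way, from 6.79 to 12.9, because EGLN3 fell more than HIF1A.

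By mean level in siNC, the order ran HIF1A, EPAS1, EGLN1, VHL, EGLN3, EGLN2, ARNT, HIF1AN, ARNT2 and HIF3A. The ranges of EGLN2 and ARNT overlapped, those of HIF1A, EPAS1 and HIF1AN stood clear of their neighbours, and EGLN1, VHL and EGLN3 followed each other with gaps of less than 1 TPM between the nearest libraries. In siBCAT1 the order was HIF1A, EPAS1, VHL, EGLN1, EGLN2, ARNT, HIF1AN, EGLN3, ARNT2 and HIF3A. Here VHL overlapped with EGLN1, EGLN1 with EGLN2, and EGLN2 with ARNT. EGLN3 overlapped with HIF1AN, whereas in siNC its lowest library was above the highest of HIF1AN.

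The study's methods list a pair of siRNAs against BCAT1, siBCAT1-1 and siBCAT1-2, and equate the name siBCAT1, under which these libraries are titled, with siBCAT1-2. By that name siBCAT1-2 is the siRNA of these libraries, and siBCAT1-1 is shown beside it because the labels give no sequence. An siRNA can lower other mRNAs whose 3′ UTR pairs with bases 2 to 8 of its guide strand, so the paired word of 7 bases was looked for in the 3′ UTR of 1 GENCODE 29 transcript of each gene. The words are TTGAGCA for siBCAT1-2 and AGACAAT for siBCAT1-1. The sites in both called members, in EGLN1, and in ARNT and HIF1AN, which were not called, are shown in 29 bases with the word in capitals, 5′ to 3′ on the strand of the gene (GRCh38).
HIF1A, TTGAGCA, chr14:61747938-61747966, plus strand: ataaagatattTTGAGCAgactgtaaaca
EGLN3, TTGAGCA, chr14:33924671-33924699, minus strand: ataacttggtaTTGAGCAcgtattttgca
ARNT, TTGAGCA, chr1:150811543-150811571, minus strand: ctttagcaagtTTGAGCAtaggctctttt
HIF1AN, TTGAGCA, chr10:100551150-100551178, plus strand: ctgggcatcagTTGAGCAgatgcccagga
EGLN1, AGACAAT, chr1:231365296-231365324, minus strand: cctctagatgtAGACAATaatgtcccatt

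ARNT2 also held AGACAAT once, and EPAS1, HIF3A, EGLN2 and VHL held neither word. TTGAGCA stood in the 3′ UTR of 11.4% of 11670 tested genes, of which 11.6% were called lower, against 11.9% of the genes without it. AGACAAT stood in 8.98%, of which 20.3% were called lower, against 11.0% of the genes without it. The 3′ UTRs with a word were longer than those without it for both siRNAs, with medians of 3114 against 911 bases for TTGAGCA and 3109 against 954 for AGACAAT. HIF1A, EGLN3, ARNT and HIF1AN each carry the siBCAT1-2 word once, and their log2 fold changes run from -1.49 to 0.06. Whether such a site has a part in the values of HIF1A, EGLN3 or EGLN1 was not tested.

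The promoters of HIF1A, EGLN3 and EGLN1 are shown because their mRNAs were lower in every siBCAT1 library, and because HIF binds DNA at ACGTG or GCGTG. Each line gives the 250 bases before a RefSeq transcript start (GRCh38.p14), 5′ to 3′ on the strand of the gene, with either word on either strand in capitals.
HIF1A, chr14:61695263-61695512, plus strand: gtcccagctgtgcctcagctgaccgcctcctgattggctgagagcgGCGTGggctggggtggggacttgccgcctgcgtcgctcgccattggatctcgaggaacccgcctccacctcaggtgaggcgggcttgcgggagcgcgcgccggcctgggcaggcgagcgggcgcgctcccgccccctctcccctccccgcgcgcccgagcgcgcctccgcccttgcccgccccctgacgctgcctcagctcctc
EGLN3, chr14:33951075-33951324, minus strand: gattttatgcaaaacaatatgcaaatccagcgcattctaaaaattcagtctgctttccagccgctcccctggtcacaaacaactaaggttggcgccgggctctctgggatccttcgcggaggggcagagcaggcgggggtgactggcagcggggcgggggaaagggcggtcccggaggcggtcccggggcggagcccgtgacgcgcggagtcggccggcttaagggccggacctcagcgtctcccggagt
EGLN1, chr1:231422288-231422537, minus strand: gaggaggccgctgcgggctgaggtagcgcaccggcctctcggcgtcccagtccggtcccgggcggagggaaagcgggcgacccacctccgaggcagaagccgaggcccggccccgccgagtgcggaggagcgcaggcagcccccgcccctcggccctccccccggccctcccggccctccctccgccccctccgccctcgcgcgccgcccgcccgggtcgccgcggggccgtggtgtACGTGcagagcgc

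The EGLN1 window held ACGTG with its first base at position -13 from the start, and the HIF1A window held GCGTG at position -204. The EGLN3 window held neither word. Of the 10 genes, 8 had a window in the RefSeq table (not ARNT2 or VHL), and some have several: HIF1A, EPAS1, HIF3A, EGLN1 and EGLN2 held a word in 1 window each, and the other window of HIF1A held none. The words on both strands can overlap, as ACGTG does with its complement in CACGTG. Counted by window, 5 of the 12 windows of these genes held a word (41.7%), a share close to the 43.2% of all 35116 windows of this length.

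Genes that overlap these in the annotation were read for their own level. HIF1A-AS3, antisense to HIF1A, ranged from 3.8 to 6.7 TPM over the 6 libraries, with a log2 fold change of 0.18 (limma adjusted p = 0.582). NDUFB8 overlaps the start of HIF1AN on the opposite strand. It averaged 296 ± 9.49 TPM in siNC and 277 ± 5.85 TPM in siBCAT1 (log2 fold change -0.10, limma adjusted p = 0.176), far above the 9.36 TPM of HIF1AN over all libraries. The strand setting of the authors' quantification is not given in the sources used here. Reads of HIF1A and its antisense RNA, or of HIF1AN and NDUFB8, may therefore not have been told apart. SPTSSA lies inside the longest annotated form of EGLN3 on the same strand, and averaged 33.9 ± 0.782 TPM with siNC and 31.8 ± 1.48 TPM with siBCAT1 (log2 fold change -0.09, limma adjusted p = 0.376). RAB4B-EGLN2, a readthrough transcript that shares sequence with EGLN2, was at 0 to 1.57 TPM.

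The partners of VHL in its ubiquitin ligase (ELOB, ELOC, CUL2, RBX1 and NEDD8) split, with 1 of 5 tested genes called lower, 1 higher and 3 not called, and a median log2 fold change of -0.06. ELOB, which together with ELOC links VHL to the cullin scaffold, was lower (411 ± 16.3 to 346 ± 20.8 TPM, log2 fold change -0.25, limma adjusted p = 0.0209). NEDD8, the ubiquitin-like protein that activates cullins, was higher (405 ± 14.2 to 527 ± 26.0 TPM, log2 fold change 0.38, adjusted p = 0.00280). Against the background of 10.4% lower and 16.7% higher, these counts do not set the ligase apart, and 0 partners were called lower without the filter, and also without siNC 1, siNC 3, siBCAT1 1 or siBCAT1 2.

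Among 17 regulators of HIF stability and activity, 15 were tested, of which 4 were called lower, 2 higher and 9 not called, with a median log2 fold change of -0.09, against 10.4% called lower, 16.7% called higher and a median of 0.04 over all genes tested. CITED2, which competes with HIF-1 alpha for the coactivators EP300 and CREBBP and is itself induced by HIF, was at 117.29, 94.61 and 125.22 TPM in siNC and at 56.01, 65.48 and 58.57 TPM in siBCAT1. The CITED2 groups lay far apart, with a log2 fold change of -0.89 (limma adjusted p = 0.00210). EP300 was also lower, with a log2 fold change of -0.56 (adjusted p = 0.0192). The remaining genes called lower were STUB1 and RACK1, each with a log2 fold change of -0.25 (limma adjusted p = 0.00939 and 0.00645). HSP90AA1 and HSP90AB1, the chaperones that protect HIF alpha subunits from degradation independent of oxygen, were higher in siBCAT1, with log2 fold changes of 0.87 (adjusted p = 0.00122) and 0.29 (adjusted p = 0.0293). The count of regulators called higher was 1 in place of 2 without the filter, with median-ratio scaling, with the replicate block together with the GC and length correction, and when any library other than siNC 2 was left out, and the count called lower was 2 in place of 4 without the filter.

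Of 11 other members of the bHLH-PAS family, which share ARNT or its relatives as partners, 6 passed the filter and the rest were too low to test. Of these, limma called 2 lower and 0 higher (also 0 at an unadjusted p under 0.05), and the median log2 fold change was -0.11, against 10.4% called lower, 16.7% called higher and a median of 0.04 over all genes tested. AHR, the dioxin receptor that dimerizes with ARNT, was at 25.35, 22.07 and 23 TPM in siNC and at 13.56, 9.83 and 10.63 TPM in siBCAT1. The AHR groups did not overlap, with a log2 fold change of -0.997 (limma adjusted p = 0.00202). Its repressor AHRR, a target of AHR, was lower as well, with a log2 fold change of -0.56 (adjusted p = 0.0353). Without the filter 1 relative in place of 2 was called lower, and likewise when a library other than siNC 2 was left out.

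Of 17 hypoxia-inducible genes, a list of textbook HIF targets that leaves out the members and classical glycolysis, limma called 9 lower, 0 higher (also 0 at an unadjusted p under 0.05) and left 8 not called. All 17 log2 fold changes were below 0, with a median of -0.51 against 0.04 for all genes tested, and the background of genes called lower was 10.4%. The list was chosen with earlier results of these data known, so these counts describe it and are not a blind test. With 1 library left out, 6 to 8 of the 17 were called lower. CA9, a membrane carbonic anhydrase and widely used hypoxia marker, was at 32.95, 22.14 and 28.24 TPM in siNC and at 8.84, 11.53 and 5.48 TPM in siBCAT1. LOX, the collagen cross-linking oxidase, was at 22.97, 19.01 and 22.19 TPM in siNC and at 7.49, 6.23 and 6.13 TPM in siBCAT1. Neither gene overlapped between groups, with log2 fold changes of -1.62 for CA9 (limma adjusted p = 0.00399) and -1.56 for LOX (adjusted p = 0.000286). PFKFB4, an enzyme that sets the level of a fructose bisphosphate activator of glycolysis, and ANKRD37, an ankyrin repeat protein, were lower by log2 fold changes of -1.30 and -1.08 (limma adjusted p = 0.00110 and 0.00219). The fall of EGLN3 at -1.49 lies within the range of these called genes, and the list shares libraries with the members, so it is no independent support for them.

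The 3 genes whose log2(TPM + 1) profile over the 6 libraries was most like that of HIF1A, by the root-mean-square difference after each gene was centred, were TRIM23 (0.0191), TAB3 (0.0288) and QSER1 (0.0323). Their log2 fold changes were -0.68, -0.69 and -0.68, close to that of HIF1A because of the way they were chosen. Of the members, EGLN1 came closest to HIF1A, at place 675 by likeness with a difference of 0.177, and EGLN3, which fell more steeply, came at place 8619 with 0.453. The measure ranks likeness in size as well as in shape.

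The direction and the call of HIF1A and EGLN3 held in each of the 14 alternative analyses, in which other scalings, filters and corrections were used or 1 library was left out. HIF1A ranged from -0.79 to -0.63 on the log2 scale and EGLN3 from -1.62 to -1.35. EPAS1 and ARNT changed sign when single libraries were left out, at values close to 0.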

How the data were processed

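The authors isolated RNA with TRIzol, made Illumina Stranded mRNA libraries from 1 μg of total RNA, trimmed reads with fastp, mapped them to GRCh38 with HISAT2 and quantified genes with StringTie (per the labels and the study's methods). Versions, annotation and strand setting are not given in the sources used here. The deposited values are TPM for each gene and library, which hold no read depth, so no counting error or floor can be given and the precision rests on the 3 libraries of each group.

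The 6 libraries were grouped by their titles and genotype labels. The 14286 of 60664 genes averaging 1 TPM or more were tested on log2(TPM + 1) in R 4.3.3 by the trended eBayes fit of limma 3.58.1, with group as the only term, two-sided, with Benjamini-Hochberg adjustment over all genes tested and a threshold of 0.05. The most genes with identical values in any pair of libraries were 203 of 14286. Shares and ratios of TPM were compared by exact permutation over libraries, and those without a p are descriptions. Replicate numbers were not taken to pair the libraries. The script was tested on simulated data.

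The members and gene lists were chosen with earlier results of these data known. The genes named are the members, BCAT1, at most 4 called genes of each list with the largest absolute log2 fold change, the 3 genes most like HIF1A, and genes that overlap a member, and the cell type markers are given as a check of the labels. Named beyond these are the remaining called regulators, STUB1 and RACK1, and some hypoxia-inducible genes that were not called. The ratios of HIF1A to EGLN3 and to EPAS1 were added after values were seen. Seed words were taken from the siRNA targets in the study's methods, 3′ UTRs from GENCODE 29 on GRCh38, and promoters from RefSeq on GRCh38.p14. GC content was known for 99.0% of the tested genes. Alternatives were no filter, a 5 TPM minimum on the mean, 0.1 as pseudocount, median-ratio scaling, quantile normalization, a replicate block, loess adjustment of each library for length and GC content (span 0.5), these last used together, and each library left out in turn. The other steps were run in Python 3.11.15 (pandas 2.3.3, numpy 2.4.6), with figures drawn by matplotlib 3.10.9.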

Additional observations from a re-analysis of the deposited data

How the results depend on the processing

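The calls of HIF1A and EGLN3 and the lack of a call for EGLN2, EPAS1, ARNT, HIF1AN and VHL held in the 14 alternatives tried. EGLN1 passed the threshold at log2 fold changes of -0.36 with a mean of at least 5 TPM (adjusted p = 0.0408) and with the replicate block (0.0361), -0.40 with median-ratio scaling (0.0245), -0.42 with quantile normalization (0.0210), -0.39 with the GC and length correction (0.0172) and with both the replicate block and that correction (0.0260), and -0.45 without siBCAT1 replicate 1 (0.0460). With each library left out in turn it ranged from -0.45 to -0.26, EPAS1 from -0.14 to 0.059 (above 0 without siNC replicate 1, and at 0.01 without siBCAT1 replicate 3), ARNT from -0.015 (without siBCAT1 replicate 1) to 0.14, and the difference in the EGLN1 share of EGLN mRNA from -0.061 (without siBCAT1 replicate 1) to 4.53 percentage points. The count of genes called was 2567 without the filter, 2318 to 3706 with a library left out and 4568 with the replicate block. Without the filter, 0 VHL partners, 2 regulators and 1 bHLH-PAS relative were called lower and 1 regulator higher. Leaving out libraries gave 0 to 1 VHL partners lower, 1 to 2 bHLH-PAS relatives lower and 1 to 3 regulators higher. Median-ratio scaling, and the replicate block with the GC and length correction, called 1 regulator higher, and the replicate block called 1 bHLH-PAS relative lower. The replicate block changed the call of no other member. Deviations of same-numbered libraries from their group means correlated at 0.0844, 0.102 and 0.124, so the numbers were read as names only. The causes of these changes were not tested. The depth of the libraries is unknown, 3 against 3 libraries cannot give an exact p under 0.1, and mRNA levels do not measure hydroxylation, protein level or HIF activity.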
